A study of Mus musculus with 6 samples.

Results

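Gpr151, Gpr139, Gpr26, Gpr149 and Nwd2 were followed through the mouse habenula. They are 5 genes, picked by symbol, of 55359 in the expression table, and all 5 were found and passed the filter on low values. The first 4 are orphan receptors, meaning G protein-coupled receptors of class A whose natural ligand is not settled. The tissue came from C57BL/6 mice aged 2 months, in 2 groups of 3 libraries. Mice of the first group were WT (wild type), and those of the second carried a conditional knockout of Tet2 (Tet2 cKO), whose enzyme oxidises methylated cytosines of DNA. The sources used here do not name the driver of the deletion, the cell type that lost Tet2 or the exons removed. The labels do not say whether libraries came from separate mice, so each p-value measures only the spread between libraries, which may be technical.

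The habenula is a paired nucleus above the thalamus with a medial and a lateral division. Medial neurons release acetylcholine, substance P and glutamate onto the interpeduncular nucleus through the fasciculus retroflexus. Lateral neurons reach the midbrain monoamine nuclei. Gpr151 is a receptor related in sequence to the galanin receptors and is known from habenular axons. Gpr139 responds to the amino acids tryptophan and phenylalanine in cell assays. Gpr26 is known for signalling to cyclic AMP without an added ligand, and Gpr149 has no known ligand. Nwd2 is no receptor: it carries a NACHT nucleotide-binding domain followed by WD repeats.

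A promoter sequence was held for 1 of the 5 genes, Nwd2. It is shown because Tet2 acts on methylated cytosines, which in mammals lie mostly in CG pairs. The 250 bases up to the start (RefSeq, GRCm38.p6, plus strand, chr5:63648853-63649102) follow 5′ to 3′, with CG in capitals.
Nwd2 promoter: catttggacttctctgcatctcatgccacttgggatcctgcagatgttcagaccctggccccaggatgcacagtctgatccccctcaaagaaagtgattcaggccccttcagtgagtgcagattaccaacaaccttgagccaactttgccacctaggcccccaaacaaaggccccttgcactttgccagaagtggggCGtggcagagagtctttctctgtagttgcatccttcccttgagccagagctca
It holds 1 CG, and the 300-base window reaching past the start holds 3. Over 32851 RefSeq promoters of that length the median was 7, and 31.4% had as many as Nwd2 or fewer. The CG pair reads the same on both strands, and 94.6% of the promoters held at least 1. This is a description of letters: methylation was not measured.

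In GRCm38 (GENCODE M21), Gpr151 (ENSMUSG00000042816) is a gene of 1 exon on the minus strand at chr18:42577881-42579652. Gpr139 (ENSMUSG00000066197, 2 exons, minus strand) lies at chr7:119140747-119184603, and Gpr26 (ENSMUSG00000040125, 3 exons, plus strand) at chr7:131966460-131994405. Gpr149 (ENSMUSG00000043441, 4 exons, minus strand) lies at chr3:62529077-62605140, and Nwd2 (ENSMUSG00000090061, 7 exons, plus strand) at chr5:63649102-63810546. Exons of Nwd2 overlap those of Gm9954, a gene on the opposite strand with 171 to 373 counts a library against 2411 to 5714 for Nwd2. Since strand use in counting is not stated, reads from the overlap cannot be told apart.

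Library totals ran from 16089676 to 17917987 counts. Tet2 itself had 3.45, 3.46 and 3.71 FPKM (fragments per kilobase of exon, scaled to library size) in WT and 4.47, 4.02 and 3.96 in Tet2 cKO, so it was not lower in the knockout libraries. This value covers the whole gene and cannot check a deletion of some exons. WT replicate 3 stood apart: principal component 1 (31.7% of variance) put it at 34.7 and the other libraries between -16.4 and 8.04. Mitochondrially encoded genes held 7.66% of the counts in WT replicate 3 and 5.43% to 6.44% in the others. Whether tissue handling or RNA quality differed in that library was not tested. The mean log2 CPM (counts scaled to library size) of 12 medial habenula markers was 4.81 there and 5.06 to 5.65 elsewhere. Not all of these markers fell in WT replicate 3. Calb2 was highest there, at 332.01 FPKM against 250.9 to 305.78, and Tac1, at 5.72, lay within the 4.1 to 6.34 seen elsewhere. Every other marker of that list was lowest in WT replicate 3. For the 4 GABAergic markers of 6 that were tested, WT replicate 3 and Tet2 cKO replicate 2 were the highest at 5.93 and 5.88, against 4.46 to 4.96 in the other 4. For 8 lateral habenula markers the score ran from 6.19 to 6.44 and for 9 thalamus markers from 7.21 to 7.38. The mean scores of lateral habenula and thalamus were thus similar in all 6 libraries, but single lateral markers were less even. In WT replicate 3 they moved both ways. Parm1 was at 4.08 FPKM there and 4.75 to 6.37 elsewhere, and Gap43 at 272.17 against 196.45 to 242.77. In bulk tissue, fewer cells of a type and less RNA per cell cannot be told apart.

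Gpr151 was the most abundant of the 5. It stood at 60.19, 81.02 and 37.5 FPKM in WT replicates 1 to 3, and at 71.7, 50.3 and 66.56 in Tet2 cKO replicates 1 to 3. WT held both the highest and the lowest library, and the knockout values lay between them. These levels put it at percentile 91.7 to 97.4 among the 14539 genes tested. Among 55 listed orphan class A receptors, of which 30 were tested, Gpr151 ranked 2nd by mean WT level, at 59.6 ± 21.8 FPKM (SD, n = 3). Its neighbours were Gpr37l1, a receptor known from glia, at 78.3 and Gpr162 at 53.9. Both fall within the range of Gpr151 over the WT libraries, so the order of these 3 does not exceed the spread.

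Nwd2 came next, with 28.75, 34.06 and 13.03 FPKM in WT and 26.95, 22.17 and 28.78 in Tet2 cKO. WT replicate 3 was again the lowest and WT replicate 2 the highest. Its percentile among tested genes ran from 72.9 to 90.9.

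Gpr26 had 11.25, 12.58 and 5.71 FPKM in WT and 9.22, 9.93 and 11.49 in Tet2 cKO. It ranked 9th of the orphan receptors, between Gpr27 at 10.5 and Gpr85 at 8.39, both inside its own WT range. Gpr139 had 4.68, 5.75 and 2.2 FPKM in WT and 4.61, 3.86 and 4.7 in Tet2 cKO. It ranked 18th, between Gpr19 at 4.65 and Gpr34, a receptor of microglia, at 4.12. For Gpr26 and Gpr139 as well, WT replicate 3 was the low library and the knockout values lay inside the WT range.

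Gpr149 was close to the filter of a mean of 1 FPKM. It had 1.17, 1.16 and 0.99 FPKM in WT and 1.11, 1.29 and 1.21 in Tet2 cKO, from 75 to 99 counts a library. It was the last of the 30 tested orphan receptors, below Gpr83, also at 1.11. Next in the list was Gpr55 at 0.750, which missed the filter. Its percentile of 3.45 to 6.88 places it near the bottom of the tested genes.

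**Figure D1:**
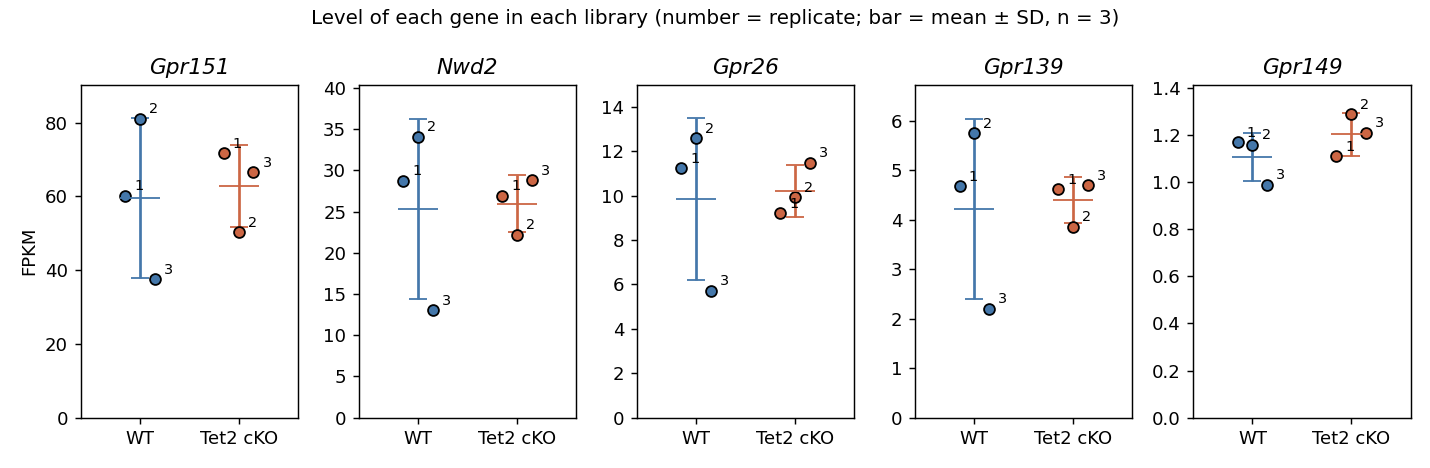
FPKM of each gene in each library, on an axis from 0 that differs by panel; numbers are replicates, and bars give the mean ± SD (n = 3 libraries a group). WT replicate 3 is the lowest library of every gene, by a wide gap in all but Gpr149, and in each panel the groups overlap.

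The order Gpr151, Nwd2, Gpr26, Gpr139, Gpr149 held in 6 of 6 libraries. Across libraries, only neighbours Gpr26 and Gpr139 touched: the lowest Gpr26 value, 5.71 FPKM, lay just under the highest Gpr139 value, 5.75. The other neighbours did not overlap. Highest over lowest library was 2.61 for Gpr139 and for Nwd2, 2.20 for Gpr26 and 2.16 for Gpr151. Among the 30 tested orphan receptors Gpr139 ranked 2nd, Gpr26 4th and Gpr151 6th by this ratio. Gpr101 at 3.70 led, and Gpr63 at 2.18 lay between Gpr26 and Gpr151. Gpr149, at 1.30, ranked 18th. Without WT replicate 3 the ratios were 1.49 for Gpr139, 1.36 for Gpr26, 1.61 for Gpr151 and 1.54 for Nwd2.

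**Figure D2:**
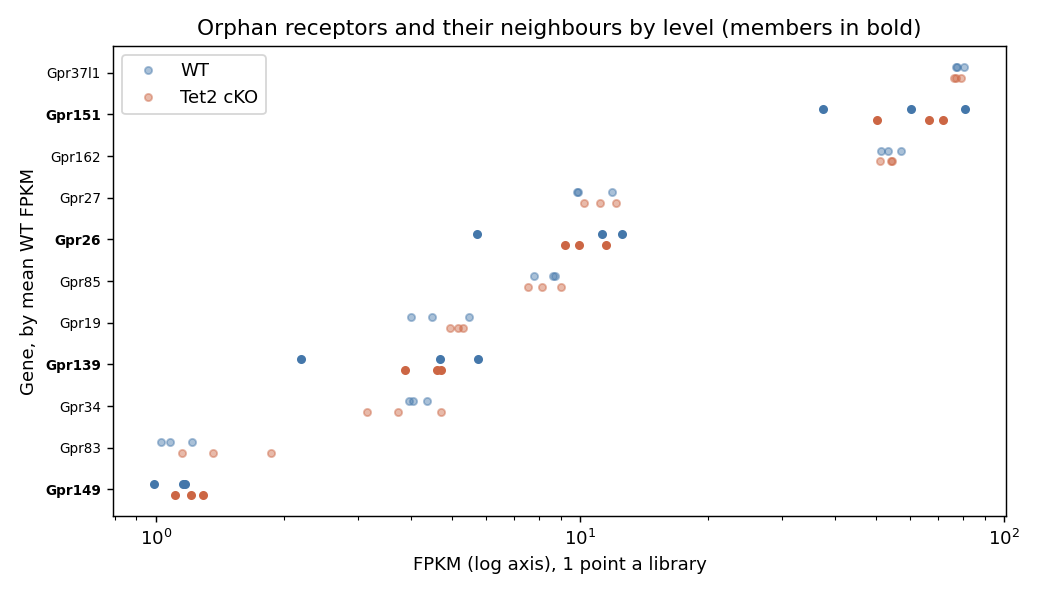
FPKM of the 4 receptors and of the tested orphan class A receptors next to each in order of mean WT level, on a log axis, 1 point a library, WT in blue and Tet2 cKO in orange. Gpr151, Gpr26 and Gpr139 spread more widely than these neighbours, with 1 WT library far to the left, while Gpr149 sits at the low end.

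The comparison asked whether these genes differed between the groups labelled WT and Tet2 cKO. Loss of Tet2 itself could not be checked in these libraries. None of the 5 changed by edgeR's quasi-likelihood test with Benjamini-Hochberg adjustment over all tested genes, and neither did any other gene: 0 of 14539, or 0%, passed an adjusted p of 0.05. An unadjusted p below 0.05 was seen for 374 genes, DESeq2 called 4, and no tool called a member. Nor did the 2 groups separate for any member, against 6.8% of all tested genes whose groups did not overlap. Choroid plexus markers had scores of 3.51 to 5.03 in WT and 2.69 to 3.95 in Tet2 cKO, and ependymal markers had mean scores of 3.80 and 3.38 with no overlap of the groups, though none of these 15 genes passed. The hippocampal score, from the 5 markers of 10 that were tested, also did not overlap between the groups (5.17 to 5.46 in WT, 4.95 to 5.08 in Tet2 cKO). Nor did the astrocyte score (7.70 to 8.01 and 8.04 to 8.11), though 1 of its 6 markers was lower in Tet2 cKO. For the ependymal, hippocampal and astrocyte scores the exact permutation p was 0.1, the smallest that 3 against 3 libraries allow. It was not adjusted for the other cell type scores examined. The part of these scores in the values of the members was not tested.

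Gpr151 was 59.6 ± 21.8 FPKM in WT and 62.9 ± 11.2 in Tet2 cKO (SD, 3 libraries each). The log2 difference was 0.07 with an SE of 0.230 (edgeR adjusted p = 0.9999, as for the other 4). Its 95% interval reached from 0.735-fold to 1.50-fold. Nwd2 was 25.3 ± 10.9 and 26.0 ± 3.41 FPKM, a log2 difference of 0.03 (SE 0.272) with an interval of 0.670-fold to 1.56-fold. Changes within such bounds could not be told from none with these libraries.

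Gpr26 was 9.85 ± 3.64 and 10.2 ± 1.16 FPKM, with a log2 difference of 0.05 (SE 0.232) and bounds of 0.721-fold and 1.48-fold. Gpr139 was 4.21 ± 1.82 and 4.39 ± 0.461 FPKM, with a log2 difference of 0.06 (SE 0.270) and bounds of 0.685-fold and 1.58-fold. Gpr149 was 1.11 ± 0.101 and 1.20 ± 0.0902 FPKM, with a log2 difference of 0.12 (SE 0.167) and bounds of 0.836-fold and 1.40-fold. These SE values were wide for this table: the median over all tested genes was 0.111, and Nwd2 stood at percentile 89.6.

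Single libraries set the sign. Without WT replicate 3 the log2 difference was -0.17 for Gpr151, -0.24 for Gpr139, -0.22 for Gpr26 and -0.27 for Nwd2. The edgeR adjusted p was 0.784 for Nwd2, 0.808 for Gpr26, 0.837 for Gpr139 and 0.925 for Gpr151, while the unadjusted edgeR values were 0.0188, 0.0329, 0.0601 and 0.253. In that fit 865 of all 14539 genes had an unadjusted edgeR p below 0.05, against 374 with all libraries. The log2 difference of Gpr149 stayed at 0.05. Without WT replicate 2, the high library, the values were 0.35, 0.34, 0.26 and 0.30. Gpr151 also fell below 0 without Tet2 cKO replicate 1, at -0.03, as did Gpr26 and Nwd2 without Tet2 cKO replicate 3, both at -0.04. The part of the low medial habenula score and high GABAergic score of WT replicate 3 in these shifts was not tested.

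**Figure D3:**
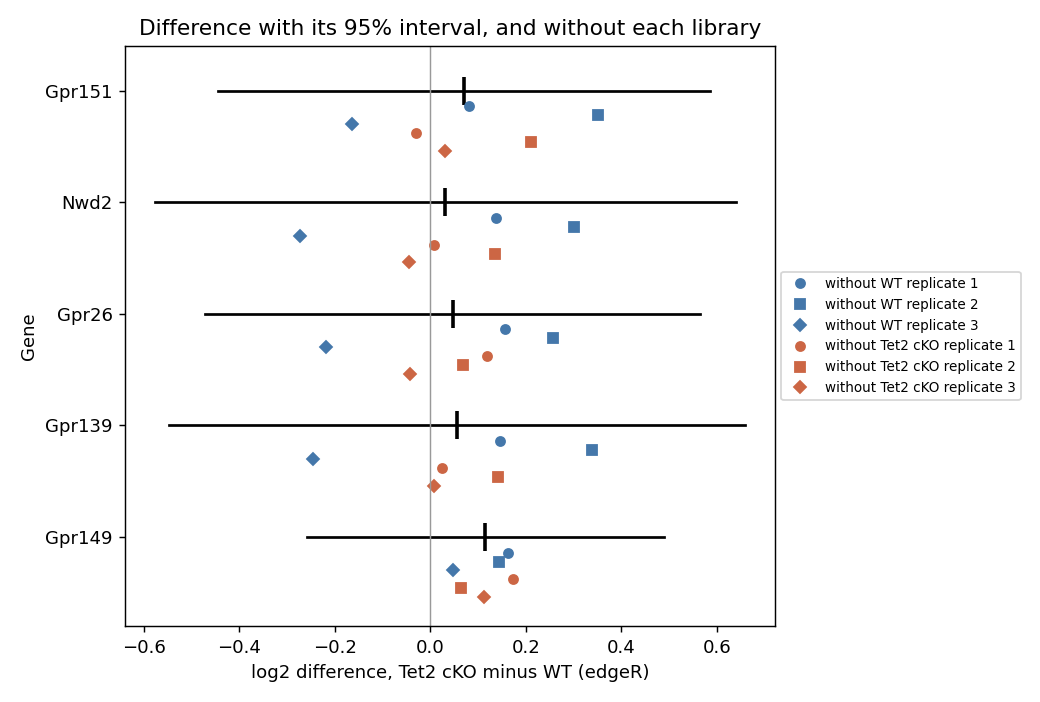
log2 difference, Tet2 cKO minus WT, by edgeR: the tick is the estimate, the line its 95% interval, and each symbol the estimate without 1 library. All 5 intervals include 0, and leaving out WT replicate 3 puts the estimates of Gpr151, Nwd2, Gpr26 and Gpr139 below 0.

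Library by library, Gpr151, Gpr139 and Nwd2 moved with medial habenula markers with and without WT replicate 3, and Gpr26 did so only with it. The SD of log2 CPM over the 6 libraries was 0.39 for Gpr151, 0.48 for Gpr139, 0.41 for Gpr26 and 0.49 for Nwd2, against a median of 0.14 over all tested genes. Taken relative to the medial habenula score, the SD was 0.11 for Gpr151, 0.21 for Gpr139, 0.23 for Gpr26 and 0.21 for Nwd2. Without WT replicate 3 the relative SD was 0.09 for Gpr151 and Gpr139 and 0.10 for Nwd2, each below the SD of the gene itself over those libraries (0.25, 0.20 and 0.22). For Gpr26 it was 0.22, above its own SD of 0.18. Without that library the ratio of Gpr26 was more even to the lateral habenula score, at 0.14, and to the hippocampal score, at 0.18. Gpr149 behaved otherwise: its SD was 0.13 as measured and 0.31 relative to the medial score, and 0.10 relative to the lateral score and 0.07 relative to astrocyte markers. With so few counts, counting alone gives Gpr149 an SD of 0.16.

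**Figure D4:**
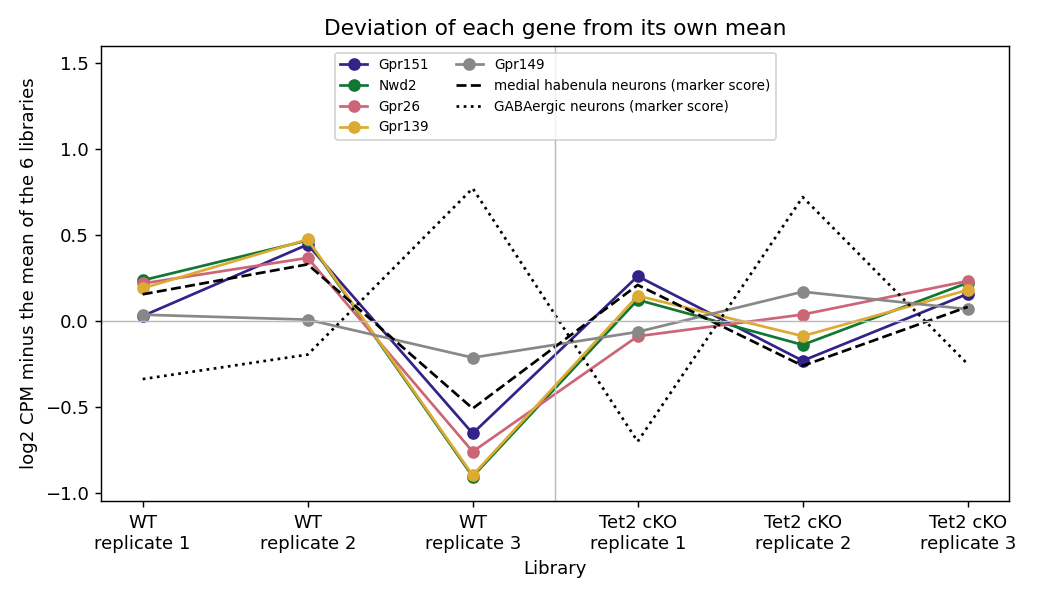
log2 CPM of each gene minus its mean over the 6 libraries, with the medial habenula score (dashed) and the GABAergic score (dotted) centred the same way. Gpr151, Nwd2, Gpr26 and Gpr139 dip with the dashed line in WT replicate 3, while Gpr149 moves little.

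Set against the medial habenula score, each difference between the groups was smaller than the SD of the WT libraries. Tet2 cKO minus WT on the log2 scale was 0.10 for Gpr151, 0.14 for Gpr139, 0.10 for Gpr26, 0.10 for Gpr149 and 0.12 for Nwd2. Exact two-sided permutation tests gave p from 0.4 to 0.7, each 0.7 after adjustment over the 5 genes, and since 3 against 3 libraries cannot go below 0.1, no gene could have passed. The medial score differed by 0.02 between the groups.

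Gpr139 and Nwd2 kept the most even ratio of the 10 pairs, although they lie on different chromosomes. Nwd2 over Gpr139 in FPKM lay between 5.74 and 6.14 in all 6 libraries, at 6.00 ± 0.127 in WT and 5.90 ± 0.197 in Tet2 cKO (SD, n = 3 each). The SD of the log2 ratio was 0.04, under the 0.08 that counting alone would give. Each had the lowest SD of 12340 genes with the other, though other genes also lay under their counting SD. Without WT replicate 3 the SD was again 0.04, and each remained in the other's first 5. All such ratios share the same 6 libraries and their depth, and are given as a description.

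Pairs of Gpr151, Gpr139, Gpr26 and Nwd2 otherwise had SDs of 0.14 to 0.23, with Gpr151 and Gpr26 the loosest. Pairs with Gpr149 had SDs of 0.32 to 0.42. Exact permutation tests of each pair's ratio between the groups could not have passed at this size, where the smallest p is 0.1.

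**Figure D5:**
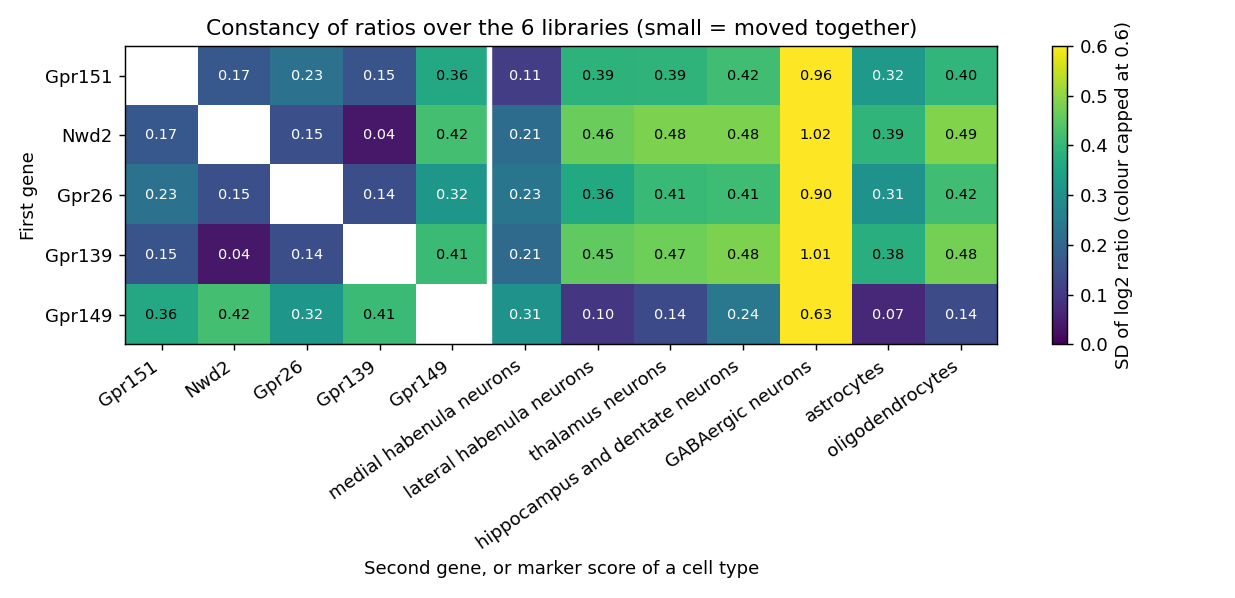
SD over the 6 libraries of the log2 ratio of each gene to each other gene (left block) and to marker scores (right block); dark is even, yellow is uneven, and the colour stops at 0.6. The darkest cell is Gpr139 with Nwd2, and Gpr149 is dark only against lateral habenula, thalamus, astrocyte and oligodendrocyte scores.

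Other genes kept similarly even ratios, ranked by the SD of the log2 CPM ratio over the 6 libraries. Nearest to Gpr151 were Robo3, an axon guidance receptor, at 0.06, Slc5a7, the choline transporter of cholinergic neurons, at 0.07, and Lrrc55, an auxiliary subunit of potassium channels, at 0.08. After Nwd2, Gpr139 was nearest to Chat, which makes acetylcholine, at 0.08 and to Vav2, an exchange factor for small GTPases, at 0.09. Nwd2 was nearest to Chat at 0.06 and Scube1, a secreted EGF-domain protein, at 0.08.

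Chat shows the shape shared here: 3.93, 4.49 and 1.77 FPKM in WT and 4.02, 2.94 and 3.98 in Tet2 cKO. WT replicate 3 was the low library and WT replicate 2 the high one, as for Gpr139 and Nwd2.

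Gpr26 was nearest to Cnnm2, a protein of magnesium transport, at 0.05, Nrp2, a semaphorin receptor, at 0.06, and Kctd12b, of the family that binds GABA-B receptors, at 0.07. Without WT replicate 3, 1 of each gene's first 3 was still among the first 3, and Chat fell to 82nd for Gpr139 and 32nd for Nwd2. For Gpr149 the nearest were Gpr158, an orphan receptor of class C, Slc39a14, a metal ion transporter, and Spag9, a scaffold protein. The order of these 3 is not separable by this measure, since 6042 of the 12340 genes had a ratio to Gpr149 with an SD under that of counting alone. For each of the other 4 genes that number was 110 to 125, so the order of their nearest genes is not resolved either. It includes Nwd2, Chat and Vav2 for Gpr139, Gpr139 and Chat for Nwd2, and Cnnm2 and Kctd12b for Gpr26.

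Of the 12 medial habenula markers, 8 stood among the first 50 genes for Gpr151, 6 for Gpr139, 6 for Nwd2 and 2 for Gpr26. Among the first 500 there were 10, 10, 10 and 8, and none for Gpr149. Leaving out WT replicate 3 kept 18 of the first 50 for Gpr151, 13 for Gpr139 and 20 for Nwd2. It kept 3 for Gpr26 and 15 for Gpr149. Lists without each other library were not made, so whether such turnover is particular to WT replicate 3 was not tested. Tac1, the substance P precursor, and Calb2, calretinin, were far from each of these genes: for Gpr151 they ranked 6386th and 10222nd. The label of habenula enrichment could not be tested against other brain regions, because the study has none. The measurements are that Gpr151, Gpr139 and Nwd2 varied with the medial habenula score, that Gpr26 did so only with WT replicate 3 included, and that Gpr149 did not.

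The genes these receptors would work with were given by lists. Of the other 26 tested orphan receptors none passed the edgeR test, and the median difference was -0.00. That median changed sign with the scaling, from -0.01 to 0.01, beside -0.00 over all genes. In the galanin system, the peptide Gal was at 4.47 FPKM in WT and the receptor Galr1 at 1.72, and neither passed (median log2 difference -0.06). Among relatives of Nwd2, its closest namesake Nwd1 was at 7.54 FPKM and the telomerase-associated Tep1 at 1.38, with a median log2 difference of -0.09 over 3 genes and none past the test.

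Transducers were abundant. Gnas and Gnao1, the stimulatory and the neuronal inhibitory alpha subunits, stood at 61.8 and 58.8 FPKM in WT, and Gng3 and Gnb1 at 142 and 141. None of the 11 tested alpha or 14 beta and gamma subunits passed the test, with medians of 0.00 and 0.03; the alpha median changed sign with the scaling. Of 9 adenylyl cyclases, led by Adcy1 at 24.7 and Adcy5 at 19.5 FPKM, none passed and the median was -0.03.

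Phospholipase C beta genes were led by Plcb4 at 31.4 and Plcb1 at 4.76 FPKM (3 tested, median -0.05). The list of R7 RGS proteins and their partners was led by Rgs7bp, a binding partner, at 56.5 and Rgs7, which speeds the off-switch of G proteins, at 17.6 (6 tested, Gpr158 among them, median -0.03). Receptor kinases and arrestins were led by Grk2 at 36.7 and Arrb1 at 22.5 (6 tested, median -0.01). No gene of these 3 lists passed the edgeR test.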

How the data were processed

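RNA was extracted with Trizol from frozen habenula and made into 3 WT and 3 Tet2 cKO Illumina libraries, per the labels' protocols. The tools SAMtools 0.1.19, HISAT2 2.0.1, cutadapt 1.9.1 and FastQC 0.10.1 and the build mm10 are named, with no order, per the submitters' processing notes. No source used here gives the counter, its annotation or its use of strand. The authors deposited 1 table of raw counts and FPKM per gene, per the file headers. The deposited FPKM equalled the count divided by exon length and library total, in the usual scale, within 0.0051 for 100% of values. Start and end equalled those of GENCODE M21 (GRCm38) for 1494 of 52083 shared identifiers, and for 0 of the 5 members, so positions printed are those of GENCODE M21.

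From the counts, edgeR 4.0.16 (R 4.3.3) ran TMM scaling and the quasi-likelihood test over 14539 genes (filter: mean of 1 FPKM or more), which hold at least 99.08% of each library's counts, with Benjamini-Hochberg adjustment and a threshold of 0.05. The test was tried on simulated counts. limma 3.58.1 and DESeq2 1.42.0 were alternatives. Marker scores are the mean log2 CPM of the tested genes of a list, with a prior count of 0.5. Ratios are differences of log2 CPM, and their SD over the 6 libraries measured likeness, over 12340 genes left after predicted genes, clones and pseudogenes. No library pair agreed within sampling noise. The common biological coefficient of variation was 10.4%. Named genes were the 5 members, Tet2, the 2 most abundant genes of each list, neighbours among orphan receptors and the 3 most even ratios per member; Gpr101, Gpr63, Tac1, Calb2 and Gm9954 were added after their values were seen. The members and lists were chosen with earlier results of these data known. Protein sequences were not used here.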

Additional observations from a re-analysis of the deposited data

How the results depend on the processing

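No setting brought a member past the threshold, over 18 alternatives each for Gpr151, Gpr26 and Nwd2 and 17 each for Gpr139 and Gpr149, which had no value under a filter of 5 FPKM. Weighting libraries by quality in limma voom, which gave WT replicate 3 a weight of 0.281, turned the log2 difference to -0.083 for Gpr151, -0.12 for Gpr139, -0.0882 for Gpr26 and -0.15 for Nwd2; the cause was not tested. Leaving out 1 library at a time gave -0.17 to 0.35 for Gpr151, -0.24 to 0.34 for Gpr139, -0.22 to 0.26 for Gpr26, -0.27 to 0.30 for Nwd2 and 0.05 to 0.17 for Gpr149, with negative values for Gpr151 also without Tet2 cKO replicate 1 and for Gpr26 and Nwd2 without Tet2 cKO replicate 3. Relative to medial habenula markers it gave 0.0575 (without WT replicate 3) to 0.188 (without WT replicate 2) for Gpr151, -0.0206 to 0.25 for Gpr139, -0.0238 to 0.27 for Gpr26, -0.10 to 0.27 for Gpr149 and -0.0517 to 0.22 for Nwd2. The count of genes past the threshold, 0 here, was 4 with DESeq2, 2 with limma voom, 49 with no filter (31689 genes tested), 2 with edgeR's filterByExpr and 0 to 3 without 1 library. With the replicate number as a block the log2 differences were 0.12 for Gpr151, 0.13 for Gpr139 and 0.11 for Gpr26. They were 0.12 for Gpr149 and 0.12 for Nwd2, with 0 genes called. Deviations of same-numbered libraries correlated at -0.02, 0.13 and -0.10, and only number 2 matched its own number best. With so few libraries this cannot settle whether the numbers mark pairs. List medians and ratio spreads without WT replicate 3 were added after seeing the data. Depth limits Gpr149 most, at 75 to 99 counts.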
